A study of Mus musculus with 39 samples.

Results

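Loss of Kdm6a in the germ line was examined in whole testis by comparing 3 conditional knockout (cKO) libraries with the 3 control libraries, controls 5 to 7, that had been quantified on the same set of 117486 transcripts. These 6 libraries are part of 39 samples in the series and of 17 whole-testis RNA-seq libraries. All 6 came from males whose only copy of Kdm6a, which lies on the X chromosome, was floxed (Kdm6a fl/y). The cKO males also carried Ddx4-Cre, a recombinase driven by the promoter of the germ-cell gene Ddx4, and the controls were Cre-. The age of the animals is not given in the labels, which also do not say whether libraries came from separate animals, so the p-values measure the spread between these samples only. Testes had been dissociated with collagenase and trypsin before RNA was extracted, and polyA RNA was sequenced as paired reads of 100 bases.

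KDM6A, also called UTX, removes methyl groups from lysine 27 of histone H3, a mark that Polycomb repressive complex 2 writes and that goes with silent genes. KDM6A also belongs to the complexes of the histone H3 lysine 4 methyltransferases KMT2C and KMT2D, which act at enhancers. The testis holds germ cells at all steps from spermatogonia through meiotic spermatocytes to haploid spermatids, beside Sertoli cells, Leydig cells and other somatic cells that Ddx4-Cre is meant to spare. In such a mixture, fewer cells of a type and less RNA per cell cannot be told apart. Each file names transcripts by Ensembl transcript ID, and neither the files nor the reference tables used here pair those IDs with genes. Kdm6a itself, the marker genes of testis cell types and gene lists were therefore not analysed here, and the results below are on transcripts. Loss of Kdm6a is thus taken from the genotype labels and was not checked in these libraries. The quantifier divides the reads of a gene among its transcripts, so the values of 1 transcript can move while those of its gene do not.

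The 6 libraries held 20326103 (cKO 3) to 29972312 (control 7) estimated counts. Between 43595 and 45876 transcripts reached 1 TPM (a level corrected for effective length and scaled to a common total) in a library. The 100 most abundant transcripts held 18.3% (cKO 3) to 20.4% (cKO 1) of the TPM. The files also record an effective length for each transcript, the length by which the quantifier divides its counts, which in these 6 libraries can exceed the length itself. Over transcripts longer than 5000 bases, the median of length minus effective length was 338 bases in control 5, and 338, 342 and 327 bases in cKO 1, 2 and 3. It was 247 and 244 bases in controls 6 and 7. The difference varied widely between transcripts, with quartiles of -215 and 946 bases in control 5 and of -309 and 832 bases in control 6, so it is not a measure of fragment length here. Of these 3 controls, only control 5 thus had a median near that of cKO, and results are given below with control 5 alone and without it.

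The libraries did not form groups by genotype on the first 3 principal components. On the first principal component of log2 CPM (counts relative to library size), with 27.1% of the variance, controls 6 and 7 lay at 136 and 133. Control 5 lay at -60.8 beside the cKO libraries, which lay at -65.8, -61.1 and -81.2. The second component, with 21.2% of the variance, set cKO 3 at 173 apart from the other 5 libraries, which lay between -76.8 and 11.6. On the third, with 18.7% of the variance, control 5 lay farthest out at -152, with cKO 1 and cKO 2 on the other side at 69.6 and 94.1 and the other 3 libraries between -16.2 and 16.6. Across transcripts, which are not independent replicates, the median absolute difference in log2 CPM was 0.275 between control 5 and cKO 1 and 0.274 between control 5 and cKO 2. It was 0.384 between control 5 and control 6 and 0.254 between control 6 and control 7. Control 5 therefore lay closer to cKO 1 and cKO 2 than to the other controls.

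**Figure D1:**
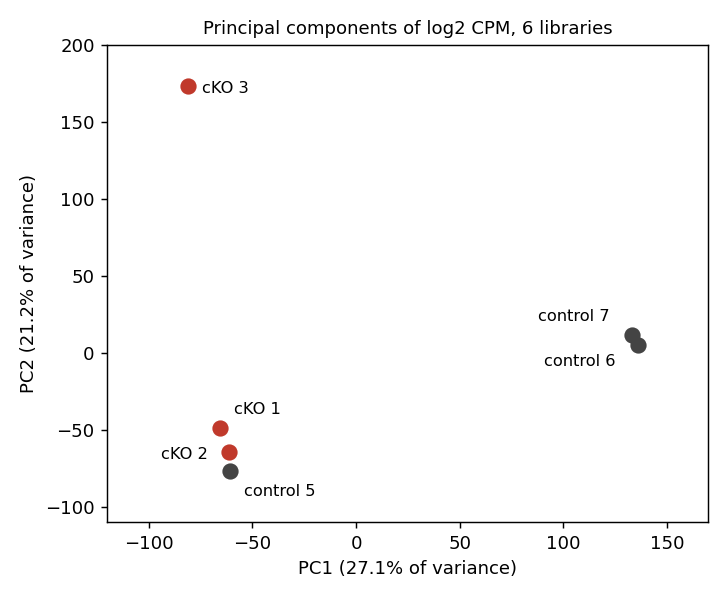
Each point is 1 library, placed by the first and second principal components of log2 CPM over the 54251 tested transcripts, with controls 5 to 7 in grey and cKO in red. Controls 6 and 7 stand together at the right, control 5 stands beside cKO 1 and cKO 2 on these components, and cKO 3 stands apart at the top.

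The main question was which transcripts differ in testis between cKO and controls. Of 54251 transcripts tested, which held 99.5% of the estimated counts, none passed an adjusted p under 0.05 by edgeR's quasi-likelihood test with Benjamini-Hochberg adjustment (0 calls, 0%, with a lowest adjusted p of 0.109). At an unadjusted p under 0.05 there were 4895, or 9.02% of those tested, with 2510 (4.63%) higher and 2385 (4.4%) lower in cKO. DESeq2 called 504 at an adjusted p under 0.05 (0.929%), 231 higher and 273 lower, and limma on log2(TPM + 1) called 2. The median log2 fold change of all tested transcripts was -0.0072. The TPM of the 3 cKO libraries lay above all 3 controls in 4983 transcripts (9.19%) and below all 3 in 3837 (7.07%).

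Transcripts were taken for description by a rule: at least 1 TPM on average in a group, no overlap between the 6 libraries, and the lowest p in each direction, so that their size and their lack of overlap follow in part from the choice. The 2 first of those lower in cKO are, by TPM, the most abundant transcript of all 3 controls and one of rank 218 to 341 in them. The 2 first of those higher are a short transcript of moderate level and a long one that was at background in controls 5 to 7. With all 6 libraries, none of these 4 reached an adjusted p under 0.05 by edgeR, while DESeq2 called all 4.

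ENSMUST00000228416, of 326 bases, had 12225, 17975 and 17685 TPM in controls 5, 6 and 7, and 5669, 6704 and 7167 TPM in cKO 1, 2 and 3. It thus held 1.22% to 1.80% of all TPM in these controls and 0.567% to 0.717% in cKO. It ranked 1 in each of the 3 controls and 9, 6 and 3 in cKO 1, 2 and 3. Control 5 was the lowest of the controls and still lay above every cKO library. The means were 15962 ± 3239 TPM (SD, n = 3) in control and 6514 ± 767 TPM (n = 3) in cKO, and the log2 fold change by edgeR was -1.21, with an SE of 0.12, a 95% interval of -1.51 to -0.91 and an adjusted p of 0.327. Against control 5 alone the log2 fold change was -0.92 (SE 0.084). In each fit against control 5 alone, the spread comes from the 3 cKO libraries only and control 5 is assumed to vary like them, so its SE holds no variation between controls. The effective length of this short transcript was 131 to 143 bases in the 6 libraries, and its TPM, share and rank depend on that value. It rested on 12984 to 45490 estimated counts per library. With effective length as an offset in the model, the log2 fold change was -1.29.

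ENSMUST00000099166, of 3012 bases, had 326, 377 and 416 TPM in controls 5, 6 and 7. It had 173, 177 and 178 TPM in cKO 1, 2 and 3, so the cKO values lay within a narrow band well below the lowest control. The means were 373 ± 45.2 TPM (SD, n = 3) in control and 176 ± 2.71 TPM (n = 3) in cKO. The log2 fold change by edgeR was -1.09 (SE 0.083, 95% interval -1.29 to -0.89, adjusted p 0.110). Against control 5 alone it was -0.94 (SE 0.046). It rested on 5753 to 20144 estimated counts per library.

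ENSMUST00000120360, of 654 bases, was the counterpart in the other direction. It had 72.9, 87.9 and 78.0 TPM in controls 5, 6 and 7 and 156, 165 and 162 TPM in cKO 1, 2 and 3. Each cKO library lay far above the highest control. The means were 79.6 ± 7.64 TPM (SD, n = 3) in control and 161 ± 4.76 TPM (n = 3) in cKO, a ratio of 2.02, and its log2 fold change by edgeR was 1.07, with an SE of 0.076, a 95% interval of 0.89 to 1.25 and an adjusted p of 0.109. Against control 5 alone it was 1.12 (SE 0.086).

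ENSMUST00000044521, of 6105 bases, was listed in the cKO libraries only among these 6. It had 253, 233 and 156 estimated counts, or 1.83, 1.84 and 1.62 TPM, in cKO 1, 2 and 3. Its estimated counts in controls 5, 6 and 7 were 3.70e-06, 8.27e-06 and 0.000188, all below a floor of 3 counts. Set against that floor per library, its mean level was at least 77.3-fold higher in cKO (edgeR adjusted p 0.109). This floor covers counting error only.

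The same 4 transcripts were then read in the 11 testis libraries of the other transcript set, which share no control with the comparison above: controls 1 to 4 of the same genotype as controls 5 to 7, and males descended from cKO, 3 F1 and 4 F2, that are Kdm6a fl/y and Cre-. TPM was scaled apart in this set of 118489 transcripts, so levels are compared within it only. ENSMUST00000120360 had 70.1 to 88.2 TPM in controls 1 to 4 and 164 to 176 TPM in F2. In F1 it had 72.2, 75.4 and 154 TPM in F1 1, 2 and 3. ENSMUST00000099166 had 265 to 284 TPM in controls 1 to 4 and 138 to 157 TPM in F2, with 276, 287 and 144 TPM in F1 1, 2 and 3. In both transcripts, all 4 F2 libraries and F1 3 differed from controls 1 to 4 in the direction of cKO, F1 1 and F1 2 lay within or close to the range of those controls, and no library lay between. Since the 2 transcripts parted the libraries in the same way, they are not shown to be independent observations.

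F2 was fitted with controls 1 to 4 only, by edgeR and adjusted over all 52475 transcripts tested. ENSMUST00000120360 was higher in F2, with an adjusted p of 0.00146 and a log2 fold change of 1.02 (SE 0.073). ENSMUST00000099166 was lower in F2, with an adjusted p of 0.000307 and a log2 fold change of -0.92 (SE 0.046). The F2 fit called 58 transcripts in all (0.111%), and the F1 fit called 0 of 55953 (0%). In F1 the log2 fold changes of the same transcripts were 0.33 (SE 0.27) and -0.23 (SE 0.20), both with an adjusted p of 0.999. These fits were chosen after the values were seen. No family or litter is given here for the F1 and F2 libraries, so these p-values measure the spread between these samples only. Whether F1 and F2 differ in these transcripts was not tested.

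The other 2 transcripts did not keep that pattern. ENSMUST00000228416 had 9230 to 14971 TPM in controls 1 to 4, 9080 to 16766 TPM in F1 and 7522 to 12686 TPM in F2, so these groups overlapped. F2 1, F2 3 and F2 4 (7867, 7900 and 7522 TPM) lay below all of controls 1 to 4, and F2 2 (12686 TPM) lay within their range. The log2 fold change of this transcript by edgeR was -0.41 (SE 0.21, adjusted p 0.770) in F2 and -0.0024 (SE 0.27) in F1. ENSMUST00000044521 had 0.720 TPM in control 1 and at most 0.00011 TPM in controls 2 to 4. It had 0.833 and 0.518 TPM in F1 2 and F1 3, and 0.846 and 1.73 TPM in F2 1 and F2 2, and was under the floor in F1 1, F2 3 and F2 4. Its presence therefore varied within groups that share a genotype. With all 7 controls, a fit that pools the 2 transcript sets without a term for the set, edgeR gave it an adjusted p of 0.548. Its log2 fold change was then 4.41 (SE 1.43) in place of 10.81 with controls 5 to 7, a value that depends on the prior count.

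**Figure D2:**
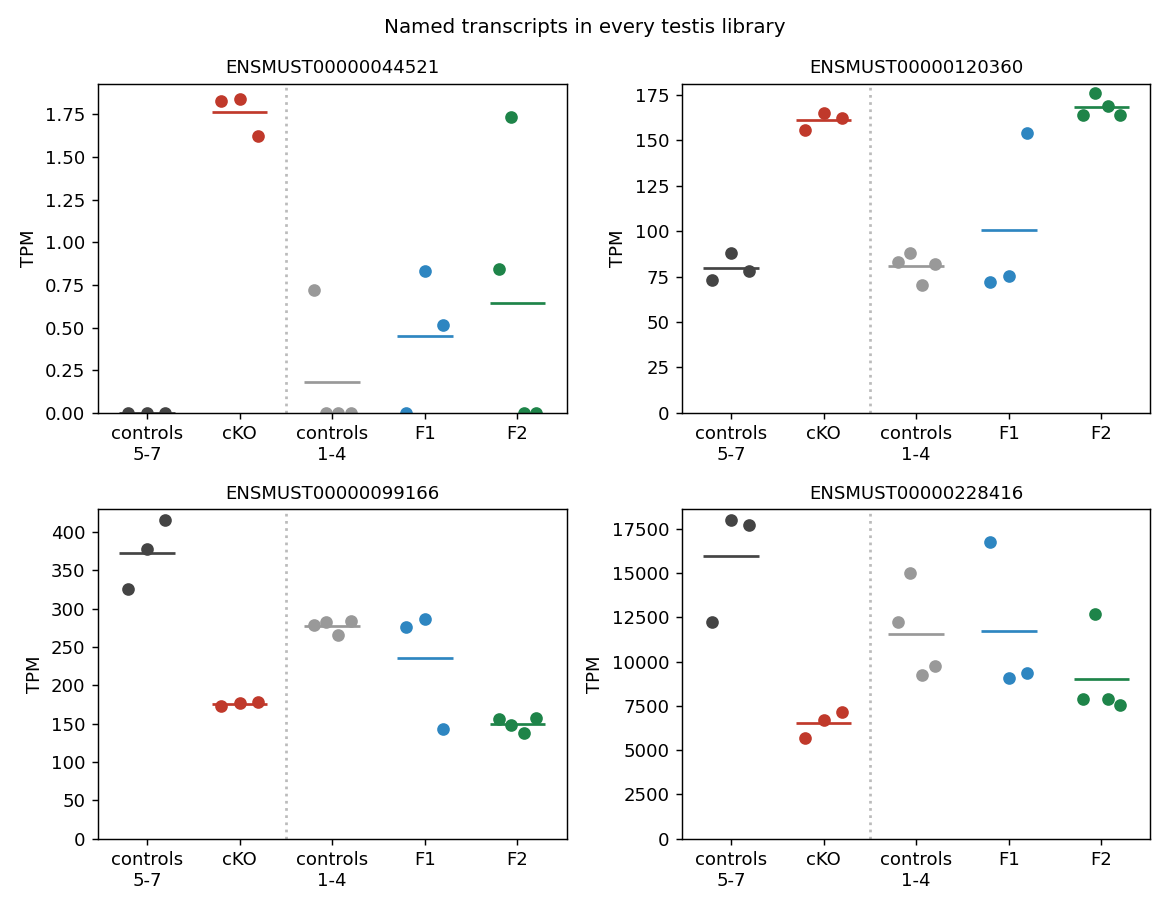
TPM of the 4 described transcripts in each of 17 testis libraries, 1 point per library, with a line at the group mean. The dotted line parts the transcript set of cKO and controls 5 to 7 from that of controls 1 to 4, F1 and F2, which was scaled separately. In ENSMUST00000120360 and ENSMUST00000099166 the cKO, F2 and F1 3 points stand apart from the rest.

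The rule was also followed down to the 10 lowest p in each direction. These include the 4 transcripts described above, and the other IDs are not printed. Of the 10 higher ones, 2 had at most 1 count in every control, and the other 8 had log2 fold changes of 0.52 to 1.67. Their median was 0.99 against controls 5 to 7 and 0.94 against control 5 alone. Of the 10 lower ones, 4 had at most 1 count in every cKO library, and the other 6 had log2 fold changes of -8.13 to -0.86. Their median was -1.49 against controls 5 to 7 and -1.13 against control 5 alone. In both directions the choice used control 5 too, so the medians against it follow in part from the choice and are not a separate check. Of the higher ones, 9 were tested in F2, and in 6 of them the F2 libraries lay above all of controls 1 to 4 without overlap, beside 3.76% of all transcripts tested there. ENSMUST00000120360, already described, is among these 6. These transcripts may part the same libraries and were not shown to be independent of each other, so the count is a description. Of the lower ones, 6 were tested in F2, with 1 below all of controls 1 to 4, beside 1.54%. That 1 is ENSMUST00000099166, already described. In F1 the counts were 0 of 10 and 0 of 9, beside 3.05% and 3.25%.

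Transcripts that seemed to be present in 1 genotype only were counted apart. With at least 10 estimated counts in each library of a group and at most 1 in each library of the other, 61 transcripts (0.0519% of 117486) were listed in controls 5 to 7 and not in cKO. The reverse held for 35 (0.0298%). Their levels were low, with a median of 0.714 TPM in controls for the first set and 0.722 TPM in cKO for the second, though the highest reached 11.5 and 26.2 TPM. They were longer than tested transcripts in general, with median lengths of 2907 and 2310 bases against 2015. Leaving out any 1 library, so that fewer had to meet the rule, gave 107 to 190 of the first kind and 85 to 127 of the second, with the most without control 5. Against control 5 alone there were 388 and 429.

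In the other transcript set, most of these transcripts met neither bound in all libraries of a group, and are called mixed here, whether their counts varied or lay between the bounds. Of 60 transcripts of the first set whose IDs are shared, 6 had at least 10 counts in all of controls 1 to 4, 6 had at most 1 in all of them, and 48 were mixed. Of 32 shared transcripts of the second set, 3 had at most 1 count in all of controls 1 to 4, 4 had at least 10 in all of them, and 25 were mixed. In F1, 14 of the 60 had at least 10 counts in all libraries, 7 had at most 1 in all and 39 were mixed, and of the 32 these numbers were 8, 3 and 21. In F2, 2 of the 60 had at least 10 counts in all libraries, 5 had at most 1 in all and 53 were mixed, and of the 32 these numbers were 6, 1 and 25. The bounds had to hold in 3 libraries in F1 but in 4 in F2 and in controls 1 to 4, so the counts of F1 are not on a par with the others. The shares over all shared transcripts were not computed, so these counts are a description.

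By edgeR, the number of calls changed when control 5 was left out. Without control 5, against controls 6 and 7, edgeR called 2242 of 57790 transcripts (3.88%), 1553 higher and 689 lower in cKO, and 11627 had an unadjusted p under 0.05. Without control 6 or control 7, and without any 1 cKO library, it called 0, with 2901 to 3911 at an unadjusted p under 0.05. Against control 5 alone, with the spread taken from cKO only, it called 0, with 3539 at an unadjusted p under 0.05. In the 2182 of the 2242 transcripts that could also be fitted against control 5, the median absolute log2 fold change was 0.61 without control 5. Against control 5, the median taken in the direction of the call was 0.043, and 823 of the 2182 had the opposite sign. Both comparisons use the same cKO libraries. In the fit without control 5, the median of length minus effective length was 247 and 244 bases in the controls and 327 to 342 bases in cKO. Genotype and that difference thus cannot be told apart in the 2242 calls. All 4 transcripts described above were among the 2242. With the grouping of control 5 and cKO against controls 6 and 7 as a term in the model, which for cKO rests on control 5, edgeR called 0 and found 3344 at an unadjusted p under 0.05.

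**Figure D3:**
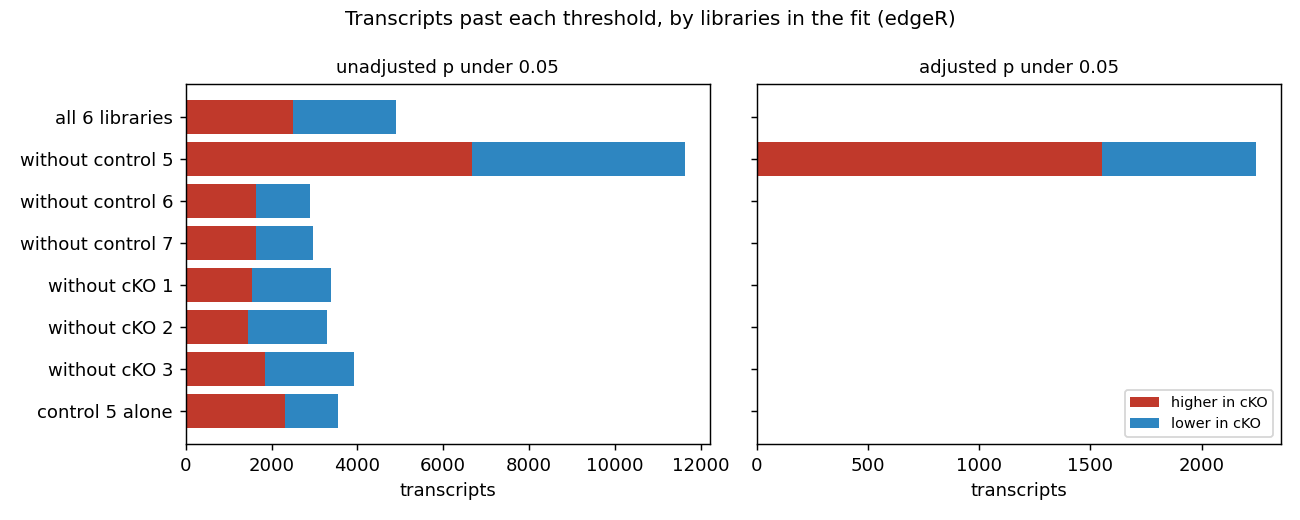
Number of transcripts at an unadjusted p under 0.05 (left) and at an adjusted p under 0.05 (right) by edgeR, higher in cKO in red and lower in blue, for all 6 libraries, with each library left out, and for control 5 alone against cKO. Calls at the adjusted threshold appear only without control 5, where there are 2242. In that fit genotype cannot be told apart from the difference in effective length.

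The differences between libraries also went with transcript length. Compared with controls 6 and 7, the median difference of cKO in log2 CPM was 0.054 in the 11375 transcripts of 1000 to 2000 bases and -0.094 in the 9761 transcripts over 4000 bases. Control 5 against controls 6 and 7 gave 0.081 and -0.078 in the same classes. Against control 5, the median difference of cKO was -0.018 and -0.0036, and between control 6 and control 7 it was -0.0066 and 0.0067. These contrasts share libraries and are given as a description. The share at an unadjusted p under 0.05 in the main comparison was 5.66% up to 500 bases and 10.7% over 4000 bases. By level, this share was 4.99% under 1 TPM and 17.4% above 100 TPM on average, and length was not separated from level. Among the transcripts over 4000 bases past that threshold, 606 were lower and 441 higher, and among those of 1000 to 2000 bases, 439 were lower and 660 higher. In the main comparison the median log2 fold change was 0.040 at 1000 to 2000 bases and -0.053 over 4000 bases, and with effective length as an offset it was 0.033 and -0.045. Up to 500 bases it was 0.015 without and -0.037 with the offset.

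**Figure D4:**
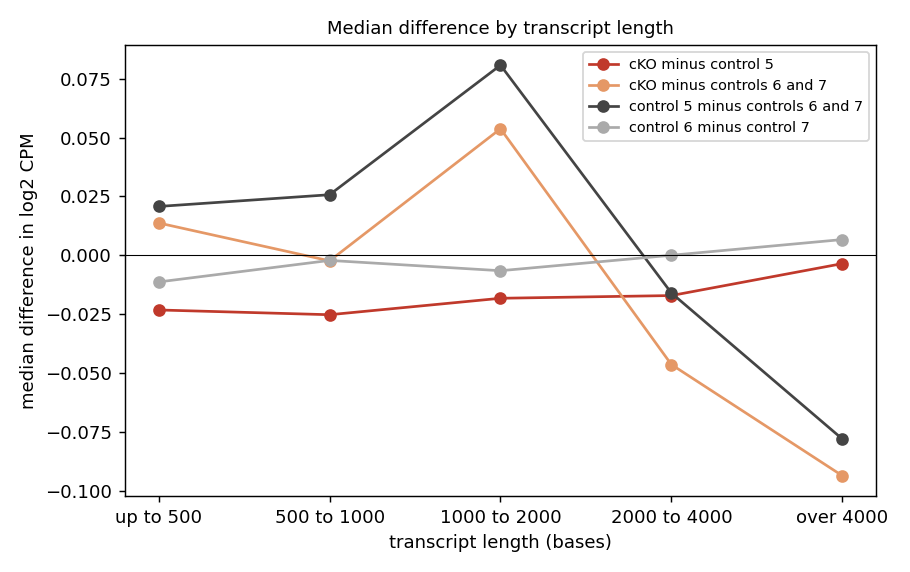
Median difference in log2 CPM (prior count 1) in 5 classes of transcript length for 4 pairs of library groups. The lines that involve controls 6 and 7 against control 5 or cKO rise at 1000 to 2000 bases and fall over 4000 bases, while cKO against control 5 and control 6 against control 7 stay between -0.025 and 0.0067.

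The precision of the comparison depended on level. Among the 1745 tested transcripts above 100 TPM on average, the median half-width of the 95% interval of the log2 fold change was 0.20, and in 1673 of them (95.9%) the whole interval lay between -1 and 1. Among the 12877 under 1 TPM the half-width was 1.18, and 2019 (15.7%) had such an interval. Over all tested transcripts the share was 50.0% (27140). A log2 change of 1 in either direction thus lay outside the interval of most abundant transcripts, and in most scarce ones the interval reached 1 or -1. Above 100 TPM, 6 transcripts had a log2 fold change beyond 1 in size, 1 higher and 5 lower, the named ENSMUST00000120360, ENSMUST00000099166 and ENSMUST00000228416 among them.

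**Figure D5:**
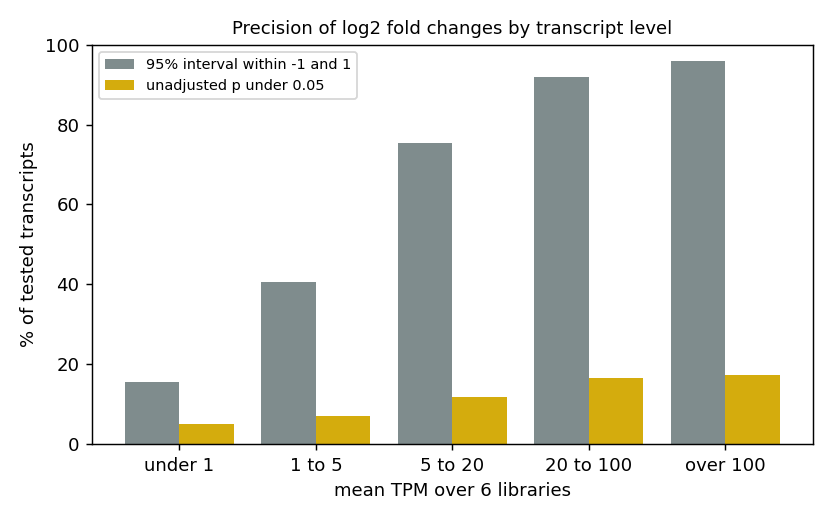
Share of tested transcripts, in classes of mean TPM over the 6 libraries, whose 95% interval of the log2 fold change lay between -1 and 1 (grey) and that had an unadjusted p under 0.05 (yellow). The first share rises from 15.7% under 1 TPM to 95.9% above 100 TPM.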

How the data were processed

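Whole-testis polyA RNA-seq was compared between cKO 1 to 3 and controls 5 to 7. Per the submitters' processing notes, FastQC and kallisto 0.45.0 were used, and the builds mm39 and mm10 are named without a role. The authors deposited estimated counts per transcript with no normalization. The deposited TPM values had been divided by effective length and rescaled so that each library sums alike, per the file headers. In the 6 libraries the effective length exceeded the length in 33.4% to 38.2% of transcripts over 5000 bases. In the other 11 it was 0%, and over those long transcripts the quartiles of length minus effective length were equal within each library. Effective lengths had thus been computed differently in the 2 sets. No source used here gives the reason.

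Estimated counts were rounded and tested per transcript with edgeR 4.0.16 (R 4.3.3), TMM factors, filterByExpr, the quasi-likelihood test and Benjamini-Hochberg adjustment. Standard errors were derived from the F statistic. DESeq2 1.42.0, limma 3.58.1 on log2(TPM + 1), other filters and factors, an effective-length offset and other control sets were alternatives. The fit was tested on simulated data. Named transcripts needed a mean of 1 TPM in a group, no overlap of TPM between groups and the lowest p, 2 in each direction. The rule, the libraries and the lists were chosen with earlier results of these data known. The planned sums per gene, the level of Kdm6a and the gene lists, with their alternatives, were not run, since IDs could not be paired with genes. Counts per library ranged from 20326103 to 29972312.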

Additional observations from a re-analysis of the deposited data

How the results depend on the processing

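The count of 0 calls by edgeR stayed at 0 with RLE size factors, with no filter on low counts (97453 transcripts), with at least 1 CPM in 3 libraries, with the effective-length offset, with control 5 and cKO set against controls 6 and 7 as a term and with control 5 alone. It was 504 by DESeq2 (273 lower, 231 higher), 4 with all 7 controls (2 lower, 2 higher), 4 with all 17 testis libraries fitted together (3 lower, 1 higher) and 2 by limma on log2(TPM + 1) (1 lower, 1 higher). Leaving out 1 library gave 0 to 2242 calls, 0 to 689 lower and 0 to 1553 higher, with calls only without control 5. The number at an unadjusted p under 0.05 was then 2901 to 11627. Without control 5, genotype cannot be told apart from the difference in effective length between cKO and controls 6 and 7. The cause was not tested. The log2 fold changes of the 4 named transcripts kept their sign under each alternative read for them. That of ENSMUST00000044521 was 4.41 with all 7 controls. The choice required no overlap between the 6 libraries, so a kept sign was likely in advance and is not separate support. The 4 were not read under the other filters, with all 17 libraries or by limma. DESeq2 and the edgeR fit without control 5 called all 4 (adjusted p 0.0107 to 0.0124 without control 5). With all 7 controls, edgeR called ENSMUST00000120360 (adjusted p 0.00082) and ENSMUST00000099166 (0.00095). The 4 were chosen by low p in libraries that these fits also use, so these calls are not separate support. The fits with all 7 controls and with all 17 libraries pool transcript sets whose effective lengths were computed differently, with no term for the set. The counts of transcripts listed in 1 group only, with alternatives chosen after seeing the data, were 26 and 16 at a minimum of 20 counts. No paired analysis was possible because the controls compared are numbered 5 to 7 and the cKO libraries 1 to 3, so they share no replicate number.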
